A study of Mus musculus with 6 samples.

Results

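The TAM receptors are the receptor tyrosine kinases Tyro3, Axl and Mertk, and their ligands are the secreted proteins Gas6 and protein S, the product of Pros1. The genes were taken from the platform annotation by symbol. All 5 were on the array, each with 1 probe set, out of 19505 named genes and 22206 probe sets.

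The ligands act as bridges. At one end a carboxylated domain, made with vitamin K, binds phosphatidylserine that dying cells and spent membranes expose, and at the other end the ligand binds a TAM receptor on a phagocyte, which then engulfs the cargo and damps its own cytokine and interferon signalling. Gas6 binds every receptor of the family, and protein S binds Tyro3 and Mertk. In mouse macrophages and microglia Mertk is known as the receptor of the resting state, whereas Axl is known to be induced by interferons and other inflammatory signals, and in the brain Tyro3 is mainly known from neurons.

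Microglia, which are the brain's resident macrophages, came from 3 conditional knock-out (CKO) samples and 3 control samples of female C57BL/6 mice at the peak of experimental autoimmune encephalomyelitis (EAE), a model of multiple sclerosis. The labels describe the CKO as a conditional knock-out in B cells and tie it to B cells that make GM-CSF, a growth factor of myeloid cells. The deleted gene, the Cre driver, the controls' genotype, the age of the mice, the number of mice behind a sample and the way microglia were isolated are unstated in the sources used here. Mice of both groups had received 100 µg of recombinant myelin oligodendrocyte glycoprotein in 100 µL of IFA under the skin, with 300 ng of pertussis toxin on that day and again 48 h later. Each sample was hybridised to 1 array, and all values are log2 values that the authors made with RMA, so that 1 unit is a doubling. Whether the replicates are separate animals is unstated too, and p-values therefore cover the spread among these 6 samples, part of which may be technical.

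The arrays carried microglial markers and markers of other cells. Cx3cr1, the fractalkine receptor of microglia, was at 17.36, 16.75 and 16.60 in CKO and at 16.67, 16.63 and 16.53 in controls, and the mean of 9 microglial markers ranged from 16.5 to 17.1 in CKO and from 16.0 to 16.5 in controls. Means of 10 astrocyte markers ranged from 9.08 to 12.3 in CKO and from 8.60 to 10.9 in controls, with CKO replicate 1 and control replicate 2 at the top. CKO replicates 2 and 3 had a narrower interquartile range (3.08 and 3.11) than the other arrays (3.66 to 4.0). Tested two-sided with limma and Benjamini-Hochberg adjustment over the whole table, 2 probe sets passed at adjusted p under 0.05 (0.00901% of those tested), neither of them a TAM gene, and 44 did at adjusted p under 0.1 (0.198%), all lower in CKO.

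Axl had the lowest values in CKO relative to controls among the 5 genes, Mertk was nearly level, and Pros1 was somewhat higher in CKO. None of the 5 passed at adjusted p under 0.05, and 1 of 5, Axl, passed at 0.1. At an unadjusted p under 0.05 Axl was lower and Pros1 higher, against a background of 9.89% of probe sets. The groups did not overlap for these same 2 genes, whereas they did not overlap for 14.4% of all probe sets.

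**Figure D1:**
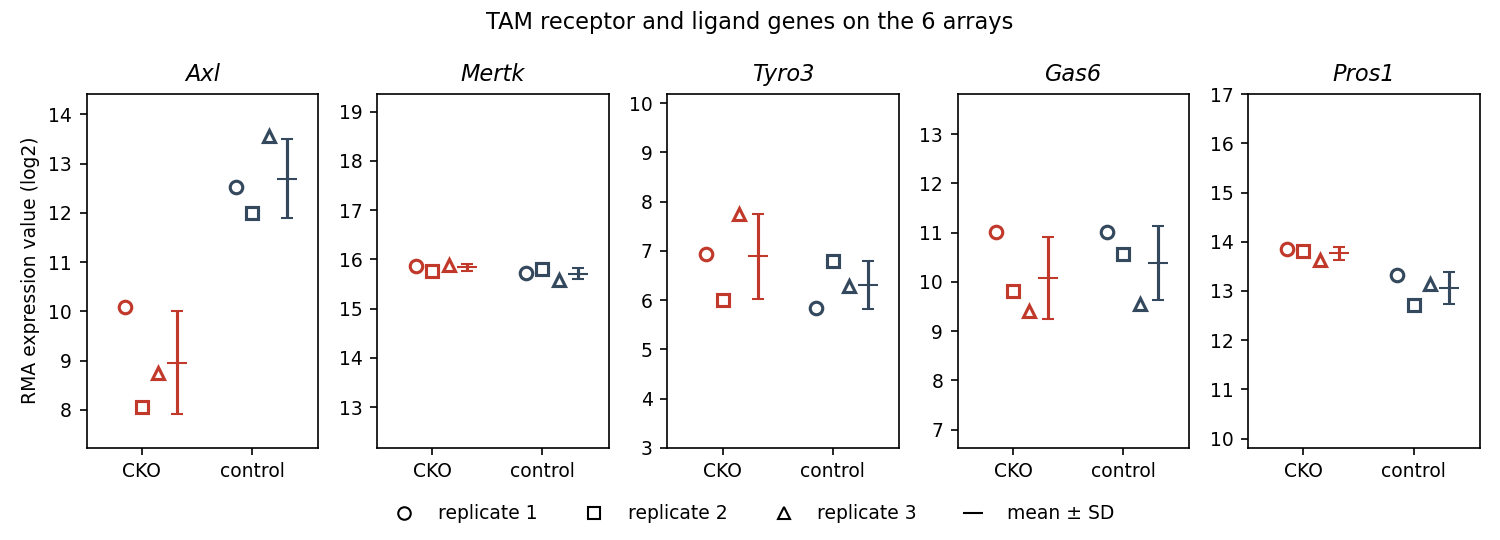
Expression values (log2, vertical axis) of the 5 genes on the 3 CKO arrays (red, left) and 3 control arrays (dark, right); symbols mark the replicate number, and the bar gives the mean ± SD. Every panel spans the same number of log2 units around its own mean. The Axl values of CKO lie 1.9 below the lowest control, and the Mertk values of all arrays lie within a narrow band.

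Axl, the inflammation-induced receptor of the family, had values of 10.09, 8.05 and 8.74 on CKO replicates 1, 2 and 3, against 12.52, 11.99 and 13.57 on control replicates 1, 2 and 3. The groups did not overlap: the highest CKO array, replicate 1, stood 1.9 below the lowest control, replicate 2. Axl averaged 8.96 ± 1.04 in CKO and 12.69 ± 0.80 in controls (SD, n = 3 each). That is a log2 difference of -3.73 (SE 0.58, 95% interval -5.05 to -2.41), or 13.3-fold lower in CKO, with a limma adjusted p of 0.0935. By unadjusted p it ranked 37 among all probe sets, and 17 probe sets, Axl included, differed by that much or more in the same direction (0.0766%). In bulk isolates, fewer cells that carry a transcript and less of it per cell cannot be told apart.

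The Axl result depended on which arrays were included. Without CKO replicate 1 the difference was -4.30 (limma adjusted p = 0.0108), and the CKO group then held only the narrow-range arrays. The adjusted p was 0.222 without CKO replicate 2, 0.386 without CKO replicate 3, 0.428 without control replicate 1, 0.0515 without control replicate 2 and 0.499 without control replicate 3, with differences of -4.08 to -3.28. With CKO replicate 1 and control replicate 2 both left out, a choice made after seeing the data, it was -4.65 (adjusted p = 0.00146). With CKO replicate 1 as the only CKO array it was -2.60 (adjusted p = 0.283), its spread being taken from the controls alone. The mean of astrocyte markers as a covariate gave -3.86 (adjusted p = 0.0108), and array weights gave -4.08 (adjusted p = 0.00717). The settings in which Axl passed called many other probe sets, against 2 in the main fit. The counts were 752 with the covariate, 1694 with array weights and 2209 without CKO replicate 1. With control replicate 2 left out too, the count was 2516.

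Mertk, the steady-state receptor for apoptotic cells on macrophages, had values of 15.87, 15.76 and 15.88 on the CKO arrays, against 15.73, 15.80 and 15.58 on the control arrays. Control replicate 2 lay above CKO replicate 2, so the groups overlapped, and all 6 values spanned less than the spread of Axl within either group. The means were 15.84 ± 0.07 in CKO and 15.70 ± 0.11 in controls (SD, n = 3 each). The log2 difference was 0.13 (SE 0.25, 95% interval -0.44 to 0.71, limma adjusted p = 0.863). The point estimate grew with scalings that stretch the narrow arrays, to 0.45 under quantile normalization and 0.88 with a common interquartile range, without passing the test (adjusted p = 0.585 and 0.588).

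The change of Axl was set against that of Mertk within each array. Levels of different probe sets are not comparable, but a shift of their log2 difference between groups measures unequal change. Axl minus Mertk was -5.78, -7.71 and -7.14 on the CKO arrays, against -3.21, -3.81 and -2.01 on the control arrays. Every CKO array lay below every control array, and the group means differed by -3.87 (-6.88 ± 0.99 in CKO and -3.01 ± 0.92 in controls, SD, n = 3 each). The two-sided exact permutation test gave p = 0.1, the smallest that 20 regroupings of 3 and 3 arrays allow.

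Tyro3, the receptor best known from neurons, had values of 6.93, 6.01 and 7.74 on the CKO arrays, against 5.83, 6.80 and 6.28 on the control arrays. The groups were interleaved, with CKO replicate 3 highest and control replicate 1 lowest. The means were 6.89 ± 0.87 in CKO and 6.30 ± 0.49 in controls (SD, n = 3 each), a log2 difference of 0.59 (SE 0.46, 95% interval -0.47 to 1.65, limma adjusted p = 0.668). It was 0.17 without CKO replicate 3 and 1.03 without CKO replicate 2, and passed in neither setting (adjusted p = 0.968 and 0.715). Means of 9 neuron markers ranged from 8.71 to 10.8 in CKO and from 8.02 to 9.66 in controls beside it, and their part in the Tyro3 values was not tested.

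Gas6, the ligand shared by all TAM receptors, had values of 11.01, 9.82 and 9.41 on the CKO arrays, against 11.02, 10.56 and 9.55 on the control arrays. CKO and control arrays alternated down the order of levels, and the range within each group (1.6 in CKO and 1.47 in controls) exceeded the difference between the means. The means were 10.08 ± 0.83 in CKO and 10.38 ± 0.75 in controls (SD, n = 3 each), a log2 difference of -0.30 (SE 0.51, 95% interval -1.46 to 0.87, limma adjusted p = 0.848). The sign was not stable: the difference was 0.038 without CKO replicate 3, 0.025 without control replicate 1 and 0.63 with CKO replicate 1 as the only CKO array (adjusted p from 0.771 to 0.997).

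Pros1, which encodes the ligand and anticoagulant protein S, had values of 13.86, 13.81 and 13.62 on the CKO arrays, against 13.33, 12.71 and 13.14 on the control arrays. Every CKO array lay above every control array, with a gap of 0.29 between the groups, and such an upward separation occurred for 5.94% of all probe sets. The means were 13.76 ± 0.13 in CKO and 13.06 ± 0.32 in controls (SD, n = 3 each). The log2 difference was 0.70 (SE 0.28, 95% interval 0.06 to 1.34), or 1.63-fold higher in CKO, with an unadjusted limma p of 0.0349 and an adjusted p of 0.465. Of 9 microglial markers 7 were higher in CKO too. Fcrls, Gpr34 and P2ry12 were higher on every CKO array (differences 1.21, 0.89 and 0.55), whereas Tmem119 and Sall1 were lower in CKO with overlapping groups (-0.44 and -0.16). The part of these markers in the Pros1 difference was not tested. The Pros1 difference was 1.21 when arrays were given a common interquartile range (adjusted p = 0.441). Gas6 minus Pros1 within each array was -2.85, -3.99 and -4.21 on the CKO arrays, against -2.31, -2.15 and -3.59 on the control arrays. These groups overlapped, and their means differed by -1.0 (two-sided exact permutation p = 0.2, smallest possible 0.1).

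**Figure D2:**
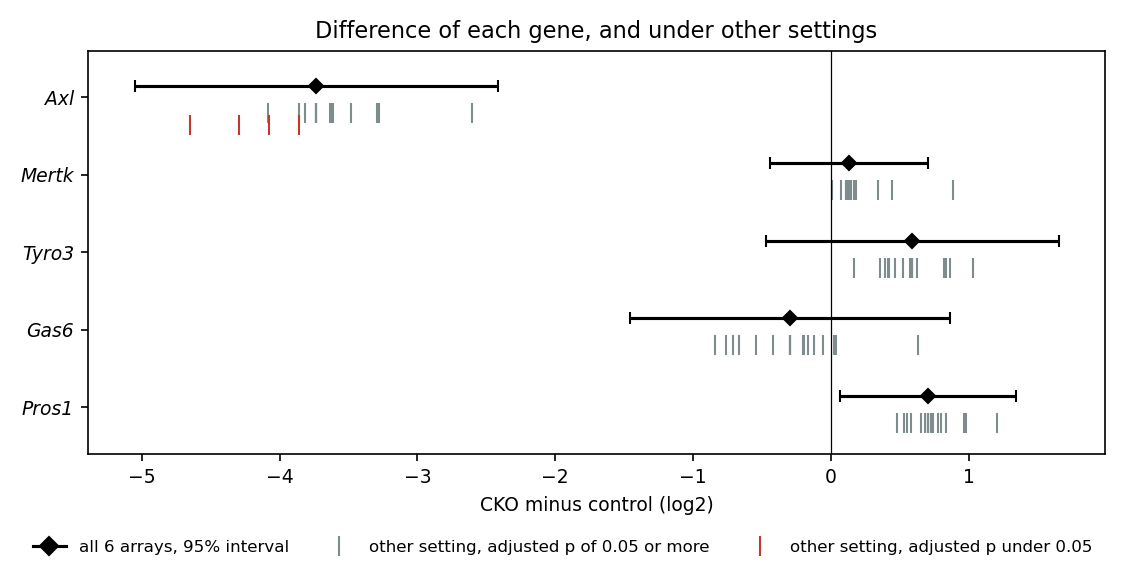
Log2 difference, CKO minus control (horizontal axis), of each gene: diamonds and bars give the estimate from all 6 arrays and its 95% interval, and ticks give the estimates under the other settings, red where the adjusted p was under 0.05. Axl is lower in CKO in every setting run (-4.65 to -2.60), and only Gas6 has ticks on both sides of 0.

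The promoter windows of Axl, Mertk and Pros1 are shown because these genes were lower, nearly level and higher in CKO. All 5 genes were found in the RefSeq promoter table (GRCm38.p6), of which the 250 bases before the annotated start are printed 5′ to 3′ in the direction of transcription. Capitals mark matches to the motifs searched.
Axl, chr7:25788734-25788983, minus strand: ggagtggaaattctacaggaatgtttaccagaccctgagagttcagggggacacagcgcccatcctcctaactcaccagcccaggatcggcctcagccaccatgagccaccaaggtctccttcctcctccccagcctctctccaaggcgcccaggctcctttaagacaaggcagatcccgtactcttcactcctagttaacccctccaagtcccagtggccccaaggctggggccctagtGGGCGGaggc
Mertk, chr2:128698665-128698914, plus strand: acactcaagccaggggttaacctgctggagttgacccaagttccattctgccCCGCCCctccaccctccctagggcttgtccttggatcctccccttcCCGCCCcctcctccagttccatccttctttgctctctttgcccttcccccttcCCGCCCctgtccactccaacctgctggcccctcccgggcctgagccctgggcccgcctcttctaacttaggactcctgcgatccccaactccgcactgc
Pros1, chr16:62854057-62854306, plus strand: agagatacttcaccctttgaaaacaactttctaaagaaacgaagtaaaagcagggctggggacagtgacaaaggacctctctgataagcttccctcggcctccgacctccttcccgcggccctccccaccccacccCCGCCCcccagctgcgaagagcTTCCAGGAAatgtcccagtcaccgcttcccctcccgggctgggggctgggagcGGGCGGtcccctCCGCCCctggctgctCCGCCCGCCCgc

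The motifs searched on both strands were the core of the interferon-stimulated response element (GAAANNGAA), the gamma-activated site bound by Stat factors (TTCNNNGAA), the GC box (GGGCGG) and the AP-1 site (TGANTCA). The Axl window held 1 GC box, 10 to 5 bases before the start, and the Mertk window held 3 GC boxes, all on the opposite strand. The Pros1 window held 5 GC boxes, of which the last 2 overlap, and 1 gamma-activated site, 92 to 84 bases before the start. The windows of Tyro3 and Gas6 held 3 and 4 GC boxes. None of the 5 windows held the interferon element or the AP-1 site. Among all 32851 promoter windows of this length, 32.7% held a GC box, 7.02% a gamma-activated site, 6.75% an AP-1 site and 7.13% the interferon element. A match is a run of letters and does not show binding, and elements outside these windows were not searched.

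Among the genes around the receptors, lower values in CKO were more common than higher ones, although no gene passed at adjusted p under 0.05. Of 102 measured genes in 10 pathway lists, 73 were lower and 29 higher in CKO, with a median log2 difference of -0.26, against 9881 lower and 12325 higher and a median of 0.06 over all probe sets. At an unadjusted p under 0.05, limma had 20 of these genes lower and 3 higher, beside 6.35% and 3.55% of all probe sets. The groups did not overlap for 23 lower and 4 higher genes, beside 8.48% and 5.94% of all probe sets. The largest median differences belonged to the cytokine signalling brakes and the interferon genes.

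**Figure D3:**
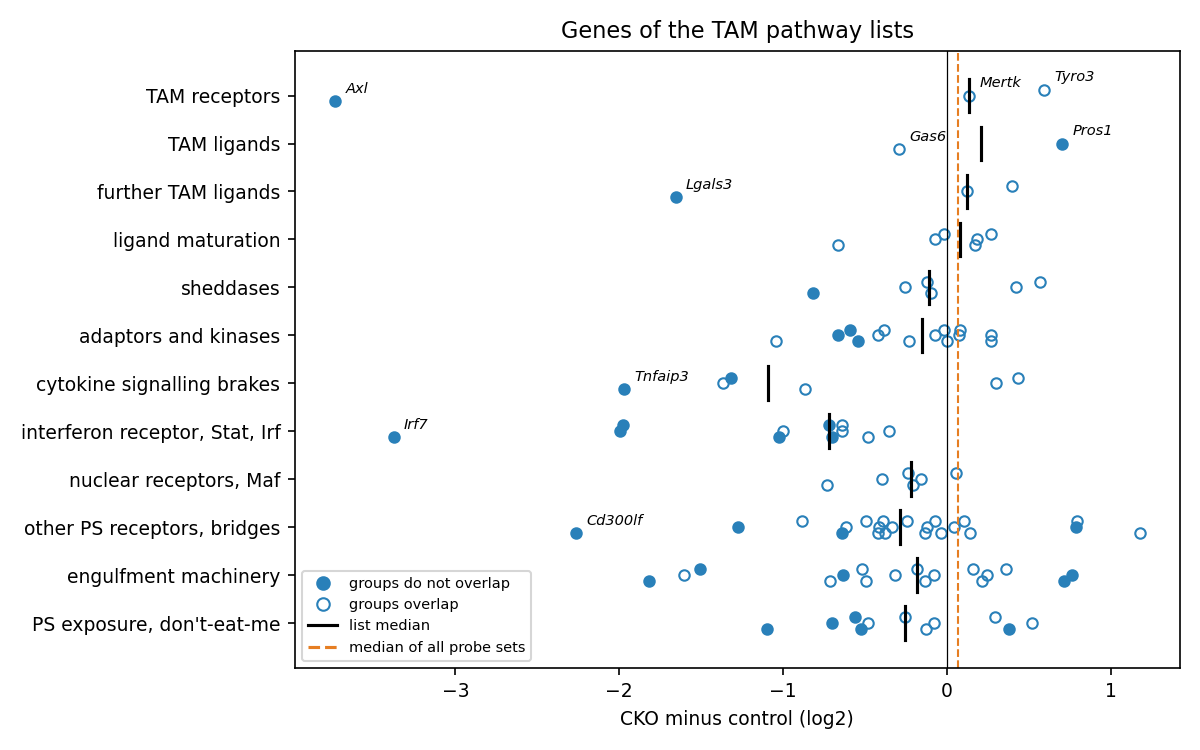
Log2 difference, CKO minus control (horizontal axis), of every measured gene (points) of the TAM genes and of the 10 pathway lists; filled points mark genes whose groups do not overlap, black bars the list medians and the dashed line the median of all probe sets. All 11 interferon receptor, Stat and Irf genes lie left of 0, and no listed gene lies as far left as Axl.

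Further proteins described as TAM ligands differed among themselves. Lgals3, which encodes galectin-3 and is described as a ligand of Mertk, had values of 7.73, 7.42 and 8.15 on the CKO arrays, against 9.44, 9.08 and 9.75 on the control arrays. The groups did not overlap, and the log2 difference was -1.66 (SE 0.31, limma adjusted p = 0.121). Tub and Tulp1, the tubby proteins described as bridges to phagocytes in the retina, differed by 0.40 and 0.12 (adjusted p = 0.726 and 0.89).

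Of 6 genes for the maturation of the ligands, 3 stood lower and 3 higher in CKO, at a median log2 difference of 0.08. The widest difference, -0.67 (SE 0.35, limma adjusted p = 0.552), was that of Vkorc1, which recycles the vitamin K needed to carboxylate Gas6 and protein S. Vkorc1 was at 12.85, 11.96 and 11.95 on the CKO arrays, against 13.17, 13.06 and 12.53 on the control arrays, so that CKO replicate 1 lay among the controls. Its relative Vkorc1l1 differed by 0.18, Furin, a protease of the secretory pathway, by 0.17, and Calu, an inhibitor of the carboxylation system, by 0.27.

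Sheddases cut the outer part of Axl and Mertk from the cell. Of 6 genes of this group 4 were lower and 2 higher in CKO, with a median log2 difference of -0.11. Adam17, the sheddase of Mertk, was at 13.58, 13.29 and 13.48 in CKO, against 13.90, 13.19 and 14.03 in controls, and the groups overlapped (difference -0.26, limma adjusted p = 0.778). Rhbdf2, which encodes the iRhom2 protein that brings Adam17 to the surface, was at 6.52, 7.05 and 6.41 in CKO, against 7.21, 7.37 and 7.85 in controls. Its groups did not overlap, with a difference of -0.82 (adjusted p = 0.441). The metalloproteinase inhibitors Timp1 and Timp3 differed by 0.57 and 0.42 (adjusted p = 0.709 and 0.867), and Timp3 was highest on CKO replicate 1 at 8.61.

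Adaptors and kinases carry TAM signals inside the cell. Of 14 measured genes 10 stood lower in CKO, at a median log2 difference of -0.15. Vav1, a signalling protein of blood cells, differed by -0.59, the adaptor Shc1 by -0.55 and the phospholipase Plcg2 by -0.67, and in each of these the groups did not overlap (limma adjusted p from 0.542 to 0.546). No other gene of the 14 separated, and 8.48% of all probe sets separated downward. Akt1, the survival kinase, was at 12.69 on CKO replicate 1, above all controls (12.57, 12.51 and 12.30), but at 10.72 and 10.84 on CKO replicates 2 and 3 (difference -1.04, adjusted p = 0.534).

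The genes listed here as brakes on cytokine signalling downstream of the TAM receptors were lower in CKO in 4 of 6 cases. All 4 had an unadjusted limma p under 0.05, and the median log2 difference of the list was -1.09. Tnfaip3, which encodes the NF-kB inhibitor A20, was at 10.89, 12.82 and 11.17 on the CKO arrays, against 12.93, 13.12 and 14.74 on the control arrays. CKO replicate 2 nearly reached the lowest control, and the difference was -1.97 (SE 0.62, adjusted p = 0.342). Ptpn6, the phosphatase SHP-1 of leukocytes, was at 11.78, 11.11 and 10.28 in CKO, against 12.56, 12.21 and 12.35 in controls (difference -1.32, SE 0.39, adjusted p = 0.314). Socs1 and Socs3, suppressors of JAK and STAT signalling, differed by -0.87 and -1.37 (adjusted p = 0.45 and 0.48), with overlapping groups: Socs3 was at 7.41 on CKO replicate 1, above control replicates 1 and 2 (7.29 and 7.32).

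Interferon receptor, Stat and Irf genes, which are placed upstream of Axl, were lower in CKO in 11 of 11 cases, with a median log2 difference of -0.72. At an unadjusted limma p under 0.05 there were 6, and 0 passed at adjusted p under 0.05. Irf7, which amplifies interferon production, had values of 7.07, 5.63 and 6.22 on the CKO arrays, against 10.24, 8.20 and 10.61 on the control arrays. The groups did not overlap, and control replicate 2 was the lowest control here as for Axl (difference -3.38, SE 0.64, adjusted p = 0.121). Irf1, an interferon-gamma induced factor, differed by -2.0, Stat2, part of the type I interferon complex, by -1.98, and the receptor-bound kinase Tyk2 by -1.02 (adjusted p = 0.121, 0.239 and 0.31).

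**Figure D4:**
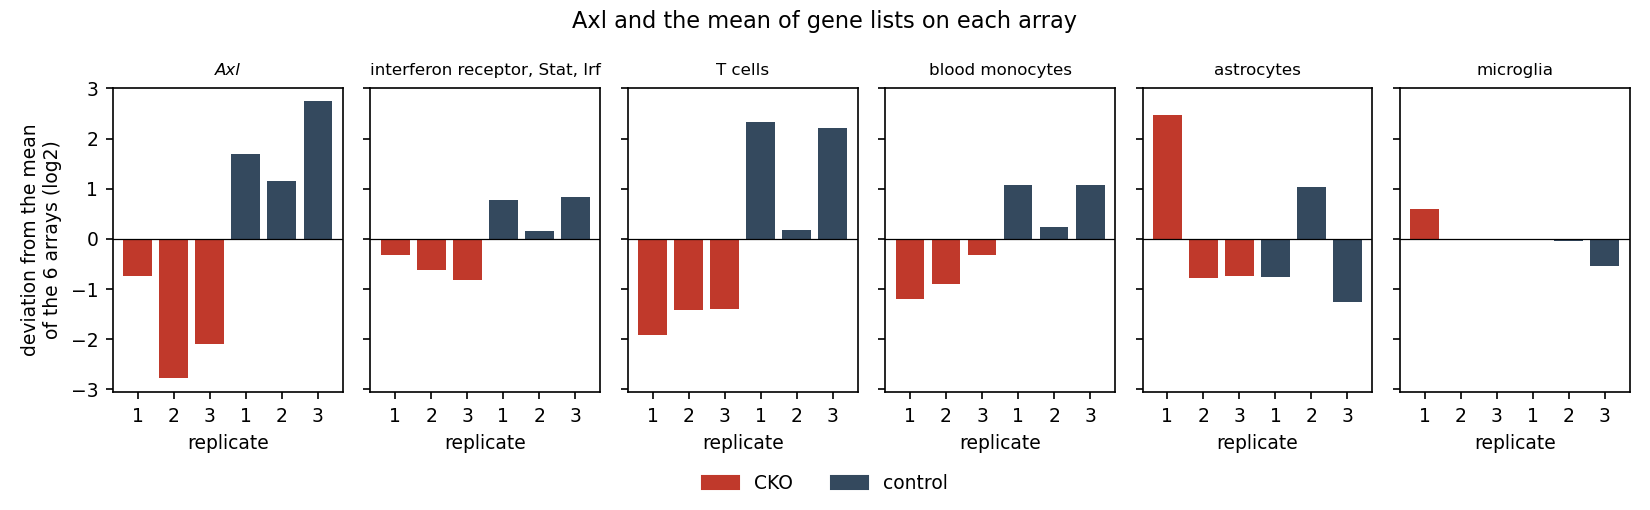
Axl and the means of 5 gene lists on each array, as the deviation from the mean of the 6 arrays (log2, vertical axis), with CKO replicates 1 to 3 in red and control replicates 1 to 3 in dark. Axl, the interferon genes, T cell markers and blood monocyte markers are below 0 in all CKO arrays and above 0 in all controls, whereas astrocyte markers are highest on CKO replicate 1 and control replicate 2.

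Markers of T cells, of NK cells and of B and plasma cells had lower list means on every CKO array than on any control, as Axl did. The same held for markers of monocytes, dendritic cells and border-associated macrophages, but not of neutrophils. All 8 measured T cell markers were lower in CKO, and their mean ranged from 6.47 to 7.00 in CKO and from 8.56 to 10.7 in controls. Cd3e, of the T cell receptor complex, was at 6.48, 8.21 and 7.40 in CKO, against 12.55, 9.59 and 12.45 in controls. Blood monocyte and macrophage markers, 9 of 9 lower, had a mean that ranged from 11.4 to 12.2 in CKO and from 12.8 to 13.6 in controls. Ccr2, the chemokine receptor of blood monocytes, was at 10.93, 12.59 and 12.30 in CKO, against 14.52, 13.48 and 13.79 in controls. Dendritic cell markers, 8 of 8 lower, ranged in their mean from 6.17 to 7.27 in CKO and from 7.61 to 8.09 in controls. NK cell markers, 8 of 8 lower, had means of 6.65 to 7.27 in CKO and of 7.395 to 8.6 in controls. B cell and plasma cell markers, 6 of 7 lower, had means of 5.53 to 6.62 in CKO and of 7.02 to 7.84 in controls. Of these only Jchain and Cd22 were lower on every CKO array (differences -4.98 and -2.22). Cd79a, Cd79b, Ms4a1, Pax5 and Blk overlapped between groups (-0.99, -0.88, -0.59, -0.22 and 0.19). Border-associated macrophage markers, 6 of 8 lower, ranged from 8.51 to 8.95 in CKO and from 9.27 to 9.58 in controls. Single markers of this list went both ways. Ms4a7, Siglec1, F13a1 and Pf4 were lower on every CKO array (differences -2.58, -1.45, -0.88 and -0.79), and Lyve1 was higher on every one (1.33). Mrc1, Cd163 and Cbr2 overlapped between groups (-0.10, 0.03 and -0.47). Ms4a7, with the widest difference, moved the list mean most. Over all probe sets the groups did not overlap for 14.4%. The order of arrays within groups was not shared throughout. Control replicate 2 was the lowest control for Axl, Irf7 and the T cell and monocyte means, but the highest for border-associated macrophage markers. CKO replicate 1 was the highest CKO array for Axl (10.09) but the lowest for the T cell mean (6.47), the monocyte mean (11.4) and the dendritic cell mean (6.17). Neutrophil markers, 6 of 7 lower, overlapped between groups, with means of 13.7 to 14.2 in CKO and 13.9 to 14.7 in controls. The part of these cells in the Axl difference was not tested.

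For cells of the vessel wall, which also express Axl, Gas6 and Pros1, the list means overlapped and single markers went both ways. The mean of 10 endothelial markers ranged from 7.46 to 7.75 in CKO and from 7.59 to 7.73 in controls. Cldn5, the tight junction protein of brain endothelium, was at 5.08, 4.70 and 5.03 in CKO, against 4.42, 5.11 and 4.50 in controls. Kdr, Flt1 and Esam were lower on every CKO array (differences -0.86, -0.67 and -0.36), and Slco1a4 was higher on every one (0.90). Over all probe sets the groups did not overlap for 14.4%. The largest difference of the list, with overlapping groups, was that of Ly6c1 (-1.38), which is also in the monocyte list. The mean of 10 markers of pericytes, smooth muscle cells and fibroblasts ranged from 6.17 to 6.76 in CKO and from 6.17 to 6.72 in controls, and Pdgfrb of this list was higher on every CKO array (0.35).

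Nuclear receptors and Maf factors that control Mertk and Gas6 in macrophages had a median log2 difference of -0.22, with 5 of 6 measured genes lower in CKO and 0 at an unadjusted limma p under 0.05. Nr1h3, the lipid sensor LXR alpha that is known to induce Mertk, was at 6.54, 5.73 and 6.49 in CKO, against 6.55, 6.48 and 6.93 in controls (difference -0.40, adjusted p = 0.671). Its partner gene Rxrb differed by -0.73, Maf by -0.24 and the glucocorticoid receptor gene Nr3c1 by -0.21 (adjusted p from 0.599 to 0.822), and the groups overlapped in each.

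Other receptors and bridging proteins for phosphatidylserine were mixed: 16 of 22 genes were lower and 6 higher in CKO, with a median log2 difference of -0.29. Cd300lf, a lipid-binding receptor of myeloid cells, was the gene of the pathway lists that passed at adjusted p under 0.1. It was at 11.58, 11.64 and 12.03 on the CKO arrays, against 14.09, 13.42 and 14.54 on the control arrays. The groups lay well apart, with a difference of -2.27 (SE 0.35, limma adjusted p = 0.0921). Anxa5, the phosphatidylserine-binding annexin, differed by -1.28 and Cd300lb, an activating relative of Cd300lf, by -0.64 (adjusted p = 0.231 and 0.529). Megf10, an engulfment receptor known from astrocytes, was higher on every CKO array, at 6.33, 5.77 and 6.67, against 5.57, 5.27 and 5.57 in controls (difference 0.79, adjusted p = 0.464).

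In the engulfment machinery 11 of 17 measured genes were lower and 6 higher in CKO, with a median log2 difference of -0.18. Rac2, a small GTPase of blood cells, was at 12.86, 11.76 and 12.20 in CKO, against 14.71, 13.26 and 14.31 in controls, without overlap (difference -1.82, SE 0.44, limma adjusted p = 0.207). Slc2a1, the glucose transporter GLUT1, and Rhog, a GTPase that starts the engulfment signal, differed by -1.51 and -1.60 (adjusted p = 0.311 and 0.419). Gulp1, an engulfment adaptor, was higher on every CKO array, at 7.87, 7.74 and 7.34, against 7.29, 6.67 and 6.71 in controls (difference 0.76, adjusted p = 0.464).

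Genes of the signals by which dying or living cells address a phagocyte, and of receptors for such signals, were listed together. They were lower in CKO in 8 of 11 measured cases, with a median log2 difference of -0.26. Panx1, the channel through which dying cells release nucleotides, was at 7.54, 7.83 and 6.65 in CKO, against 8.49, 8.32 and 8.51 in controls (difference -1.10, limma adjusted p = 0.343). P2ry2, a receptor for such nucleotides, differed by -0.70, Cd47, the don't-eat-me signal, by -0.56, and Ano6, a lipid scramblase, by -0.53 (adjusted p from 0.467 to 0.571). In each of these 4 genes, named for the smallest p of the list, every CKO array lay below every control array. Tmem30a of the same list was higher on every CKO array (0.38). Over all probe sets 8.48% separated downward and 5.94% upward.

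The genes whose profile over the 6 arrays was most like that of each TAM gene were found by Pearson's r among genes that varied at least 0.5 times as much. The points share arrays, scaling and the group difference, and r is given as a description. The search covered 17027 genes for Mertk, 11154 for Tyro3, 10772 for Gas6 and 15325 for Pros1. For Axl, 638 genes varied enough, and the nearest were Rps20 (r = 0.988) and Rplp0 (0.982), of the ribosome, H2-T-ps (0.982), an MHC class I pseudogene whose probes may share sequence with its relatives, and Mx2 (0.981), an antiviral GTPase. Mx2 was at 8.69, 7.78 and 8.06 in CKO, against 9.94, 9.30 and 10.78 in controls, the same order of arrays as Axl. For Tyro3 the nearest were Lrrtm2 (0.992), a synaptic adhesion gene, Fsd1 (0.981), Kcnj3 (0.978), a potassium channel gene, and Ppp1r14a (0.971). Gas6 was most like Ergic1 (0.997), Tshz1 (0.988), Thyn1 (0.985) and Bcl2l1 (0.983). Pros1 was most like Nat8f5 (0.996), Oxct2b (0.995), Cldn2 (0.991) and Mccc2 (0.981). Mertk, whose own values hardly varied, was most like Tspoap1 (0.998), Exoc6b (0.995), Lrrc39 (0.993) and Sptan1 (0.992).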

How the data were processed

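Microglial RNA was isolated with TRIzol and labelled as biotinylated cDNA (GeneChip WT PLUS kit), per the labels' protocols. The deposited log2 values per probe set were made by the authors with RMA, per the submitters' processing notes; its version, settings and annotation are not stated there. Values ran from 2.93 to 19.93, which fits a log2 scale. Arrays have no depth; their number limits the precision.

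Groups came from the sample titles. Of 22206 probe sets, 19572 named 1 gene symbol, 0 several and 2634 none; all 19572 matched the GRCm38.p6 gene table by Entrez number. Where a gene had several probe sets (55 genes, no TAM gene), the highest mean stood for it. The whole table was tested with limma 3.58.1 under R 4.3.3 (lmFit and eBayes, trend off, CKO minus control, two-sided), adjusted by Benjamini-Hochberg over all probe sets at 0.05. The fit was tested on simulated data of 3 against 3 arrays. At that threshold it recovered 35 of 100 changes of 2 log2 units and 86 of 100 changes of 4 log2 units, with 4 false calls. The simulated noise was independent between probe sets, without deviations shared across an array, so these rates may not hold for the real arrays. Within-array differences had exact permutation tests.

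The members, 10 pathway lists, 13 marker lists and tests were chosen with earlier results of these data known. Named were the 5 genes, up to 4 genes per pathway list by smallest p, and the 4 genes most like each member (passing over gene models, olfactory, vomeronasal, microRNA and antigen-receptor genes). From the marker lists, Cx3cr1, Cd3e, Ccr2 and Cldn5 are named as examples. Fcrls, Gpr34, P2ry12, Kdr, Flt1, Esam, Slco1a4, Pdgfrb, Lyve1, Ms4a7, Siglec1, F13a1 and Pf4 were chosen after their values were seen, because their groups did not overlap. Tmem119 and Sall1 are named as the microglial markers that were lower in CKO. All measured B cell markers, Mrc1, Cd163, Cbr2, Ly6c1 and Tmem30a were also named after their values were seen. Cx3cr1 is also in a pathway list, and Ly6c1 is in both the monocyte and the endothelial list. Alternatives were 4 scalings, 2 filters on dim probe sets (20% and 50%), a trended robust model, array weights, a replicate block, an astrocyte covariate and leaving out each array. Leaving out pairs of arrays was added after seeing the data.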

Additional observations from a re-analysis of the deposited data

How the results depend on the processing

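Axl was lower in CKO in every setting run, from -4.65 to -2.60 over all, from -4.30 to -3.28 when 1 array was left out and from -4.08 to -3.48 over the other planned settings (log2). It passed at adjusted p under 0.05 with array weights (-4.08), with the astrocyte covariate (-3.86), without CKO replicate 1 (-4.30) and, in a setting chosen after seeing the data, without CKO replicate 1 and control replicate 2 (-4.65). Mertk ranged from 0.072 to 0.18 with 1 array left out, Tyro3 from 0.17 to 1.03, Gas6 from -0.76 to 0.038 and Pros1 from 0.53 to 0.84, and none of these 4 passed in any setting. Gas6 turned to 0.038 without CKO replicate 3, 0.025 without control replicate 1 and 0.63 without CKO replicates 2 and 3; the cause was not tested. Axl minus Mertk ranged from -4.42 to -3.37 and Gas6 minus Pros1 from -1.45 to -0.73 with 1 array left out. The 2 probe sets called became 1694 with array weights, 752 with the covariate, 4 in the trended robust fit, 1 each under quantile normalization and with the dimmest 20% or 50% left out, 0 to 2209 with 1 array left out, 2516 without CKO replicate 1 and control replicate 2, and 0 without CKO replicates 2 and 3. Median centring moved the median difference of all probe sets to -0.06, against 0.06 as deposited. With the replicate number as a block, 0 probe sets were called and Axl differed by -3.73 (limma adjusted p = 0.153). Same-numbered arrays deviated from their group means with correlations of -0.0055, -0.23 and 0.25, against -0.33 to 0.30 for differently numbered arrays. With 3 arrays per group, these values cannot show whether same-numbered arrays were paired. The mean over several probe sets could not be run, since each of the 5 genes has 1, and the filter on the dimmest 50% left out Tyro3. Only 3 arrays per group limit all of these values, and signal over background is unknown.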
